A study of Xenopus tropicalis with 30 samples.

Results

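The subject here is the 434 most abundant transcription start sites of the adult frog *Xenopus tropicalis*, out of 69786 sites in the table used (0.622%). A site was taken when its mean level reached 500 counts per 1000000 counts (CPM) over 6 males or over 6 females. RNA came from whole bodies of adult animals. WTSS-seq reads the 5′ ends of transcripts after removal of ribosomal RNA, and was run on 6 individual males, on 6 individual females and, as 2 libraries, on a pool of RNA from 3 females. CAGE, which captures the cap of the RNA, was run once on that pool of females. WTTS-seq counts poly(A) sites, the 3′ ends of transcripts, and was run on the same 6 males and 6 females. No strain, age in days or treatment is given in the labels. A whole body mixes all organs, so more cells of a type and more RNA per cell cannot be told apart.

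A transcription start site is where RNA polymerase begins a transcript, and the new RNA receives its cap there. A few promoters in a body usually give a large part of the messenger RNA, because tissues such as muscle, skin, ovary or testis devote much of their transcription to a few proteins. Start-site methods differ in how they pick out capped ends, so a 5′ end counted by one of them can be missed by another. The site tables name no genes, so sites are given by chromosome, position and strand, no gene, exon or UTR is assigned, and the whole-body label could not be set against marker genes.

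The WTSS-seq libraries of single animals held 1866839 to 6643184 counts and the WTTS-seq libraries 2304469 to 6624765. One unplaced scaffold, left out of the table, took 67.2% of female 3, 26.1% of the first of 2 male columns headed Male4, 15.5% of female 4 and 1.56% to 8.71% of the other animals. Sites that rest mainly on 1 animal, given below, were most often highest in female 3 or in that Male4 column. Both Male4 columns count as animals here, which the headers do not settle. The sites were chosen on WTSS-seq, so their ranks, sex differences and evenness in WTSS-seq are a description with no test. WTTS-seq, the pool and CAGE were not used to choose them.

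The 434 sites carried most of the male WTSS-seq counts and a smaller part of the female ones. They held 62.4% ± 1.66 of the counts in males, between 60.1% and 64.2% per animal, and 45.7% ± 2.15 in females, between 43.7% and 49.5% (SD, n = 6 each). The lowest male lay above the highest female. Of the 434, 131 reached 500 CPM in males only, 245 in females only and 58 in both, called male, female and shared sites from here on. The smallest class was the heaviest in males: the 58 shared sites held 41.8% ± 4.36 of male counts and 16.3% ± 4.16 of female counts. The 131 male sites held 17.5% ± 2.93 in males and 1.49% ± 0.277 in females. The 245 female sites held 3.14% ± 0.263 in males and 27.9% ± 3.08 in females.

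Male start-site counts were concentrated in a few sites. Each male's highest site took 14.0% ± 1.15 of its counts and each female's 4.40% ± 0.475, and the 10 highest took 37.4% ± 2.89 in males and 11.7% ± 2.09 in females (SD, n = 6 each). In males 6 sites lay at 10000 CPM or more, and in females 1. At 1000 CPM the order turned, with 80 sites in males and 118 in females. The 10 highest sites of the sexes had 1 site in common, and the 100 highest had 22.

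The highest site in males lay on chromosome 5, plus strand, at 61406537 (site from 61406296 to 61406594). It had 113891 to 138811 CPM in males (median 131872, mean 130165 ± 8659) and 4215 to 14402 CPM in females (median 4543, mean 6196 ± 4028; SD, n = 6 each). Every male stood far above every female. In females the site still had rank 6, and female 2 alone stood at 14402 CPM while the other 5 averaged 4555 CPM. The male sites at 61409146 and 61410126 lay just downstream of it on the same strand.

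The sites of ranks 2 and 3 in males were of the same kind, high in both sexes and far higher in males. On chromosome 9, plus strand, the site at 7178506 had 87384 to 158607 CPM in males (median 116164, mean 119197 ± 30332) and 1515 to 5185 CPM in females (median 2759, mean 3248 ± 1518; SD, n = 6 each). It had rank 2 in males and rank 24 in females. On chromosome 7, plus strand, the site at 105388814 had 14629 to 41142 CPM in males (median 33746, mean 31612 ± 10179) and 935 to 5631 CPM in females (median 4397, mean 4080.3 ± 1715; SD, n = 6 each). Neither site's values overlapped between the sexes.

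The sites of ranks 4 to 6 in males continued this order. On chromosome 10, minus strand, the site at 1471249 had a mean of 20486 ± 5410.2 CPM in males and 2522 ± 1254 CPM in females. That on chromosome 4, plus strand, at 12626599 had 18936 ± 4472 CPM in males and 1063 ± 563 CPM in females. That on chromosome 1, minus strand, at 88630830 had 12369.7 ± 1460.4 CPM in males and 3853 ± 895 CPM in females. These first 6 sites all reached 500 CPM in females too, whereas those of ranks 7 to 10 did not. These 4 were a site on an unplaced scaffold (position 14589, minus strand) with 9885 ± 8481 CPM in males and 62.1 ± 30.0 CPM in females, and sites on chromosome 9 at 36990600, chromosome 2 at 62334654 and chromosome 10 at 16537182. The scaffold site was also uneven among males, from 2834 to 25788 CPM.

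In females 1 site stood apart. It lay on chromosome 2, minus strand, at 39401987 (39401692 to 39402584), and had 1657 to 2377 CPM in males (median 1979, mean 1982 ± 258) and 11454 to 51961 CPM in females (median 42335, mean 39125 ± 14278; SD, n = 6 each). Its lowest female was female 3, and that animal was still above every male. The sites after it in females were closer together. A site at the start of an unplaced scaffold (position 182, plus strand) had 4578 to 8329.8 CPM in males (median 5657, mean 6073 ± 1441) and 5579 to 11377 CPM in females (median 9980.1, mean 9081 ± 2526; SD, n = 6 each). Males and females overlapped there. It had rank 12 in males and rank 2 in females.

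The sites of ranks 3 and 4 in females both lay on chromosome 3. That at 94955325, plus strand, had a mean of 2604 ± 650.0 CPM in males and 8617 ± 4522 CPM in females. That at 81925372, minus strand, had 2268 ± 605 CPM in males and 7565 ± 2797 CPM in females. In both, female 3 was the lowest female and lay within the male range. The sites of ranks 9 and 10 in females, on chromosome 5 at 58847564 (minus strand) and chromosome 9 at 32718978 (plus strand), were also high in males. They had means of 1664 ± 324 CPM in males and 5069 ± 1012 CPM in females and of 2693 ± 722 CPM in males and 5035 ± 1458 CPM in females.

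**Figure D1:**
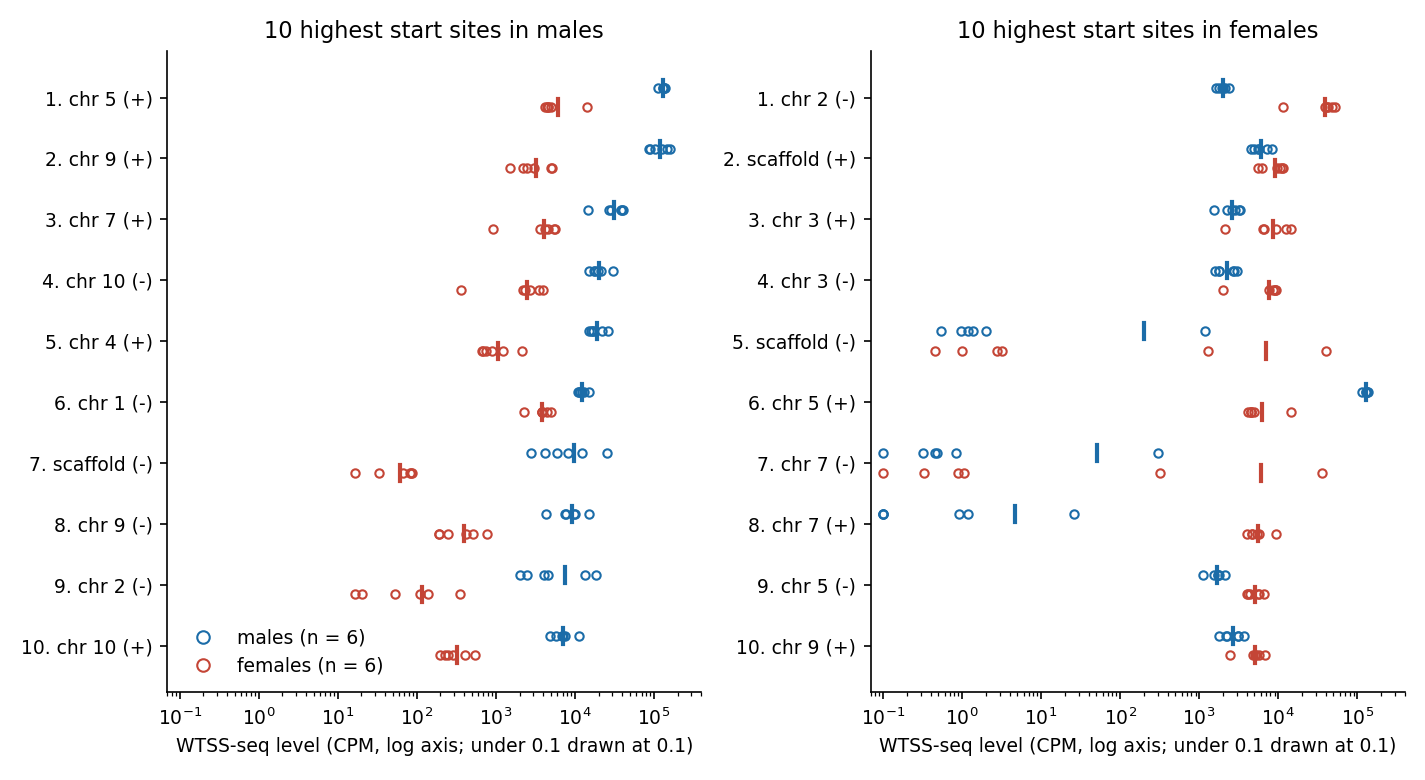
The 10 highest start sites in males (left panel) and in females (right panel), named by chromosome and strand. Circles are single animals on a log axis of WTSS-seq level in CPM, males in blue above females in red (n = 6 each), and bars are means. The highest site in males lies between 113891 and 138811 CPM in males, and the sites of ranks 5 and 7 in females rest on 1 female.

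The sites of ranks 5 and 7 in females rested on female 3. On a scaffold at 5030, minus strand, female 3 had 40791 CPM, while the other 5 females averaged 259 CPM. On chromosome 7, minus strand, at 8096997 it had 35701 CPM and the others averaged 64.3. In males the first Male4 column was highest at both sites, with 1183 and 302 CPM, while the other 5 averaged 1.22 and 0.419 CPM. Female 3 and this male are the libraries with the largest shares of the scaffold left out. Whether those shares have a part in the values was not tested.

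Most of the 434 sites differed between the sexes by more than 2-fold. The mean was at least 2 times as high in males at 141 sites, at least 10 times at 92 and at least 100 times at 19. It was at least 2 times as high in females at 254 sites, at least 10 times at 133 and at least 100 times at 46. The other 39 lay within 2-fold. A high level in 1 sex is enough for the choice of sites, which favours sites that differ, so nothing is read from these counts. Their shares over all sites were not computed. Of the 58 shared sites, the mean was higher in males at 21 and higher in females at 37, and 29 lay within 2-fold. These ratios are of CPM, in which the few very high male sites lower all other male values. Over the 36522 sites that averaged 1 CPM or more, the median log2 ratio of males over females was −0.85 in CPM and −0.23 with TMM scaling, which is built to offset such sites.

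All 6 males lay above all 6 females at 126 of the 434 sites, and all 6 females above all 6 males at 203. The choice of sites used these values, and nothing is read from the counts. Among sites of 1 CPM or more, the same held for 15.5% in the male direction and 25.0% in the female direction. With TMM scaling the counts were 131 and 153. Without female 3 they were 129 and 242, and without the first Male4 column 130 and 206.

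The 131 male sites were rarely silent in females. Their median was 834 CPM in males and 53.1 CPM in females, and 19 of them lay under 10 CPM in females. The median of the 245 female sites was 80.9 CPM in males and 762 CPM in females, and 45 of them lay under 10 CPM in males. The lowest values of the other sex lay among the female sites, 10 of which averaged under 1 CPM in males, against 1 male site under 1 CPM in females.

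The 5 sites with the lowest ratio of males to females were close to silent in males. On chromosome 4, minus strand, at 35850671 the 6 males gave 1 count in all and the 6 females 18161. On chromosome 1, minus strand, at 173657267 the males also gave 1 count, and the females 19320. On chromosome 9, minus strand, at 77005397 there were 4 male counts and 28163 female ones. At each of these 3 sites the male counts came from 1 male, while every female had at least 372, 294 and 1136 CPM in the order given. The other 2, on chromosome 4, plus strand, at 25159195 and chromosome 2, plus strand, at 144103174, had 7 and 9 male counts and 30700 and 79572 female counts. That chromosome 2 site varied among females from 196 to 7609 CPM. The site of rank 8 in females, on chromosome 7, plus strand, at 101426755, belonged to the same kind. It had 4.69 ± 10.5 CPM in males and 5631 ± 1887 CPM in females, and 0.424 CPM in males without the first Male4 column.

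At the male end the largest ratio rested on 1 animal. This was a site on chromosome 7, plus strand, at 9086083, which had 3078 CPM in the second Male4 column, a mean of 32.9 in the other 5 males and 0.974 in females. Next came 3 sites on 1 unplaced scaffold, all on its plus strand, at 33341, 33524 and 11912. The site at 33341 had 145 to 2473 CPM in males (median 840.1, mean 971 ± 788) and 0.164 to 11.7 CPM in females (median 3.29, mean 3.80 ± 4.16; SD, n = 6 each). It was present in every male but spread widely among them. The scaffold held 7 of the 434 sites, all male ones, with means of 570 to 1224 CPM in males and 3.52 to 8.62 CPM in females.

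**Figure D2:**
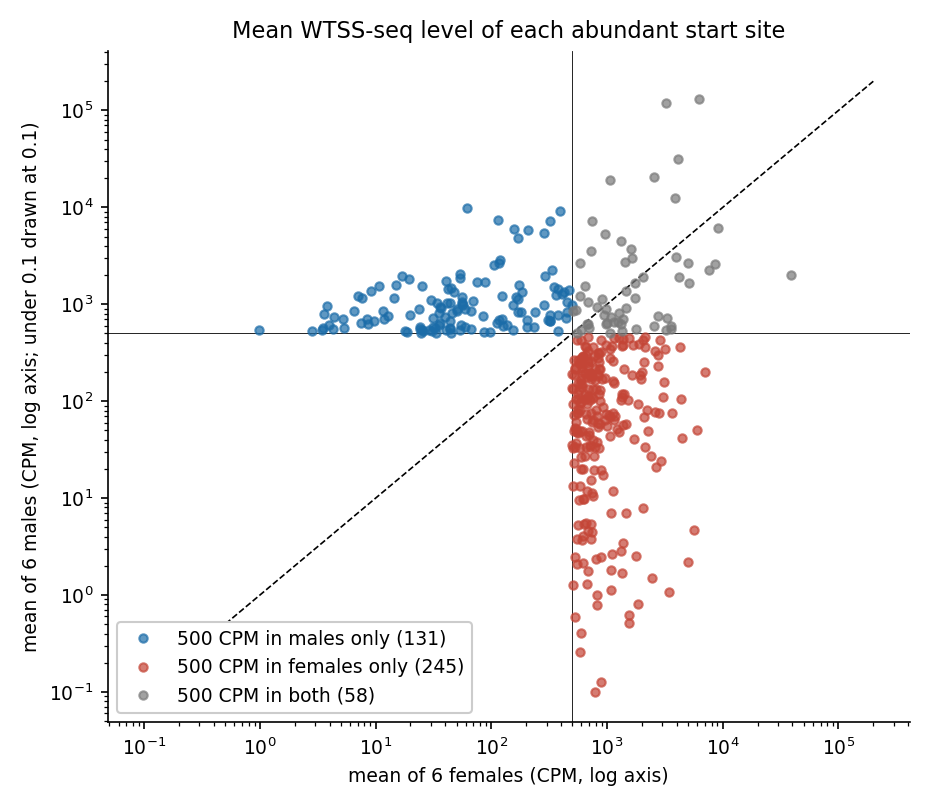
Mean WTSS-seq level of each of the 434 sites in 6 males (vertical) and in 6 females (horizontal), both in CPM on log axes. Thin lines mark 500 CPM and the dashed line equal levels. The 131 male sites lie upper left, the 245 female sites lower right and the 58 shared sites upper right. In CPM, which lowers most male values, female sites reach lower in males than male sites do in females.

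The poly(A) counts of the same animals gave a separate reading of sex. Each start site was first joined to the poly(A) sites that followed it on its strand, each within 20000 bases of the one before. The poly(A) counts of each such start-to-end locus were compared between the sexes with edgeR's quasi-likelihood test over all 12576 loci that passed the filter on low counts. Of the 434 sites, 409 lay in 393 such loci and 25 in none. For 249 of the 409 the locus had too few poly(A) counts to be tested, which leaves 160. A locus could pass through the sex in which it is high, so the counts below describe the tested sites and not all 434.

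Loci of male sites were mostly higher in males. Of the 59 tested male sites, 53 had a locus that rose in males at an adjusted p under 0.05, 0 had one that rose in females and 6 were not called, with a median log2 difference of 4.82. The 0 was the same at an unadjusted p under 0.05 in edgeR and in DESeq2 after adjustment. Of the 77 tested female sites, 6 had a locus higher in males and 42 one higher in females, and 29 were not called (median −1.90). Of the 24 tested shared sites the numbers were 7, 4 and 13 (median 0.49). Several sites can share a locus: the 53 male sites lay in 45 distinct loci and the 42 female sites in 40. In the background of all tested loci, 26.0% were called higher in males and 26.3% higher in females, and the median was −0.24. In all, 66 sites had a locus higher in males and 46 one higher in females. With scaling to library totals alone these became 52 and 71, since that scaling moves the median log2 difference of all loci by −1.37.

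A locus ends where the next start site follows a poly(A) site, which leaves many loci short. The strongest poly(A) site within 20000 bases downstream on the same strand was also taken, a choice made after seeing the data. Such a site existed for 400 of the 434 and was tested for 323, site by site over 16429 poly(A) sites. It was higher in males for 93 of 99 male sites and in females for 0 (1 at an unadjusted p under 0.05, 2 with library totals alone). It was higher in males for 9 of 179 female sites and in females for 117. Of 45 shared sites it was higher in males for 16 and in females for 7. Several start sites can share a poly(A) site: the 93 calls rest on 75 distinct poly(A) sites and the 117 on 114. Over all tested poly(A) sites 25.8% were called higher in males and 24.9% higher in females. These shares carry no such choice, so they are not a like comparison. The totals of 118 and 124 became 93 and 165 with library totals alone.

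**Figure D3:**
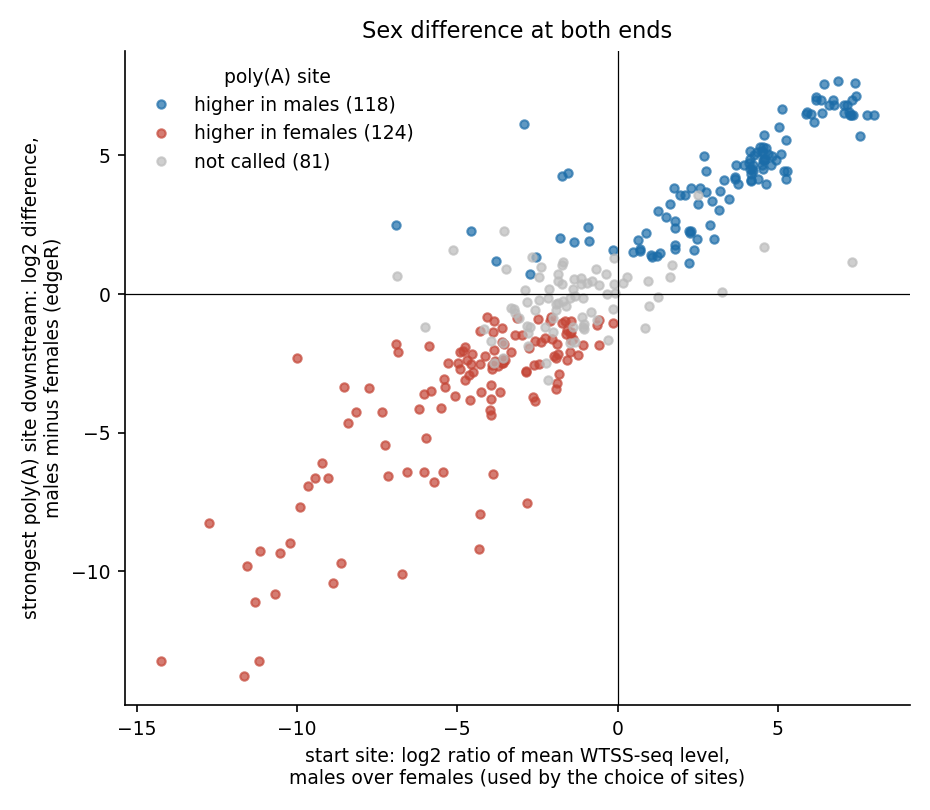
The log2 sex difference of the strongest downstream poly(A) site (vertical, males minus females) against the log2 ratio of the start site (horizontal, males over females), for 323 sites. Blue points were called higher in males (118), red ones in females (124) and grey ones not called (81). The blue and red points rest on 98 and 120 distinct poly(A) sites. Of 99 male sites 0 have a poly(A) site called higher in females (2 with library totals alone), while 9 female sites have one called higher in males. Fitted values of poly(A) sites at 0 counts in males depend on the small count added in the fit. Each poly(A) site was chosen by its mean level in the same libraries.

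For the highest sites in males both ends can be set side by side. Poly(A) levels are TMM-scaled CPM (SD, n = 6 each). The strongest poly(A) site after the first of them lay 6400 bases downstream on chromosome 5, and had 7873 to 17615 CPM in males (mean 12516 ± 3913) and 455 to 1241 CPM in females (mean 710.2 ± 284) (log2 difference 4.14, SE 0.33, adjusted p = 3.12e-07, edgeR). Males and females did not overlap. After the chromosome 9 site at 7178506, at a distance of 4008 bases, it had 2676 to 12855 CPM in males (mean 5527 ± 3755) and 53.3 to 745 CPM in females (mean 257 ± 251) (log2 difference 4.43, SE 0.62, adjusted p = 5.06e-05, edgeR). After the chromosome 7 site at 105388814, at 2486 bases, it had 7493 to 11259.8 CPM in males (mean 9033 ± 1349) and 702 to 1267 CPM in females (mean 875 ± 212) (log2 difference 3.37, SE 0.25, adjusted p = 1.32e-07, edgeR). All 3 rose in males, each with every male above every female.

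The highest site in females had little poly(A) signal near it. The strongest poly(A) site downstream of the chromosome 2 site at 39401987 lay 8869 bases away, and had 8.37 to 21.2 CPM in males (mean 14.2 ± 5.29) and 8.16 to 51.7 CPM in females (mean 35.6 ± 15.1) (log2 difference −1.33, SE 0.49, adjusted p = 0.0324, edgeR). The sexes overlapped in range. Both levels were small beside the 39125 CPM of the start site, although the CPM of both assays rest on different totals. By class, the strongest downstream poly(A) site reached 500 CPM in either sex for 62 of 131 male sites, 17 of 245 female sites and 10 of 58 shared ones. Its median level was 703 CPM in males for male sites and 35.5 CPM in females for female sites. These levels are TMM-scaled, which raises male and lowers female values. As CPM of library totals the counts were 57, 22 and 11 sites, and the medians 391 CPM and 49.8 CPM. The shares over all start sites were not computed, so nothing is read from the counts.

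At the 6 female sites named above as close to silent in males, the strongest downstream poly(A) site had 0 to 41 counts over all males. Downstream of the pair on chromosome 4, minus strand, at 35848702 and 35850671, 1 poly(A) site at 35847557 gave 0 counts in 6 males and 174 to 396 CPM in females (adjusted p = 2.80e-07). For the chromosome 2 site at 144103174 the counts were 0 in males and 14367 in females (306 to 529 CPM, adjusted p = 9.66e-08). For the chromosome 7 site at 101426755 they were 0 and 510, a level of 16 ± 5.90 CPM in females (adjusted p = 1.12e-04). All adjusted p-values are from edgeR, over all poly(A) sites. No fold is given here because the male counts are 0. For the chromosome 9 site at 77005397 the counts were 1 in males and 3042 in females (adjusted p = 1.94e-07 in edgeR). For the chromosome 4 site at 25159195 they were 1 and 8131 (adjusted p = 1.71e-08 in edgeR). The site on chromosome 1 at 173657267 had 41 male counts, all from 1 male at 16.7 CPM, and 31130 female counts.

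A poly(A) site can also belong to another transcript, since no gene models were at hand. The site of rank 4 in females, on chromosome 3 at 81925372, had as its strongest poly(A) site one at 15107 bases with 1818 to 2832 CPM in males (mean 2405 ± 464) and 93.3 to 219 CPM in females (mean 127 ± 48.5) (log2 difference 4.24, SE 0.31, adjusted p = 1.32e-07, edgeR). Start site and poly(A) site thus differed between the sexes in opposite directions. It is not among the 9 female sites because it reached 500 CPM in both sexes. Among those 9, the distance ran from 4201 to 17398 bases.

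At most sites no single animal of a sex held the bulk of the level. With even use, each of 6 animals would hold 16.7% of the summed level. The animal with the largest share held a median of 24.4% over the 189 sites of 500 CPM or more in males, and 23.2% over the 303 such sites in females. The median coefficient of variation was 30.9% in males and 34.3% in females. Every male reached 500 CPM at 95 of the 189 sites, and every female at 116 of the 303.

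A small group of sites rested on 1 animal. More than 50% of the summed level came from 1 male at 9 sites and from 1 female at 22. The first Male4 column was that male at 6 of 9, and female 3 that female at 17 of 22. Without that animal, 2 of the 9 and 4 of the 22 sites still averaged 500 CPM. Among the 9 was a site on chromosome 6, minus strand, at 113328859. It had 6598 CPM in the first Male4 column, 179 CPM in female 4, and medians of 0 in both sexes. Among the 22 was a site on chromosome 3, plus strand, at 53656009, only 7 bases wide. It had 20.7 CPM in the first Male4 column, 8164 CPM in female 3 and medians of 0 in both sexes. Both were also at 0 counts in CAGE.

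**Figure D4:**
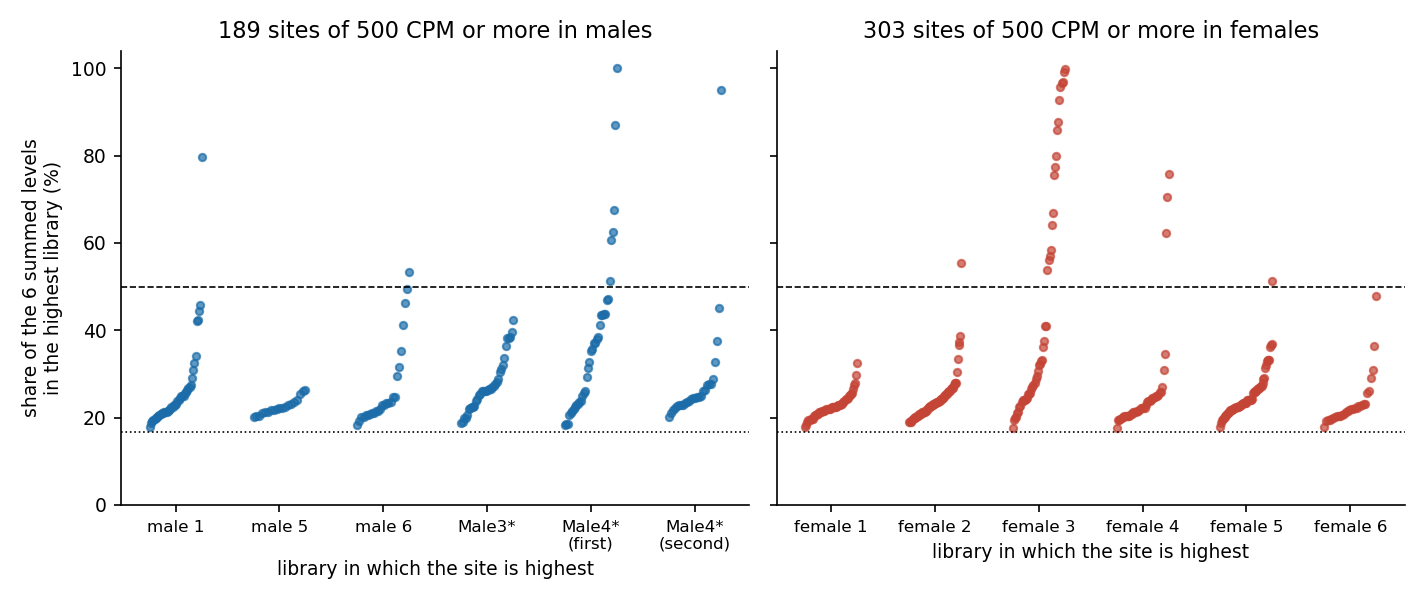
Share of the summed level of 6 animals that lies in the highest one, for the 189 sites of 500 CPM or more in males (left) and the 303 in females (right), placed by the library that is highest. The dotted line marks an even share (16.7%) and the dashed line 50%. Asterisks mark columns whose header could not be tied to 1 animal. Of the 9 male sites above 50%, 6 lie in the first Male4 column, and of the 22 female ones 17 lie in female 3.

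The steadiest sites over all 12 animals were shared ones. On chromosome 5, minus strand, the site at 54659864 had 513 to 832 CPM in males (median 599.9, mean 621 ± 119) and 605 to 715 CPM in females (median 678, mean 668 ± 37.5; SD, n = 6 each). The site on chromosome 1, plus strand, at 8038634 had 3095 ± 680.2 CPM in males and 3932 ± 429 CPM in females. A site on the minus strand of chromosome 1, at 172711847, had 776 ± 142 CPM in males and 943 ± 186 CPM in females. In all 3 the sexes overlapped. The locus of the first was nevertheless called higher in females in poly(A) counts (log2 difference −1.43, SE 0.46, adjusted p = 0.0156, edgeR). Its strongest poly(A) site was not called (log2 difference 0.35, SE 0.32, adjusted p = 0.384, edgeR).

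The repeat libraries of the pool of 3 females show how far a site's level repeats. The 434 sites held 41.2% and 30.0% of the counts of these 2 libraries. Over the 303 sites of 500 CPM or more in females, the second library's level was a median 0.797 times that of the first. It lay within 2-fold at 163 sites, more than 2 times higher in the second library at 45 and in the first at 92, and 3 sites were at 0 in the first library. Across these 303 sites the Spearman rank correlation of the pool libraries with each other was 0.49, and that of the mean of the 6 females with them 0.60 and 0.53. These are descriptions over sites that share libraries and depth.

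CAGE found most of the sites, but at lower levels and in a partly different order. The CAGE library gave the 434 sites 10.4% of its counts. At 50 CPM or more it held 258 of 434 sites, against 6.01% of all 69786 sites, and at 500 CPM or more 41. The 69786 include all the weaker sites, so the 2 groups are not alike in level. These 41 stood among 317 sites of 500 CPM or more in CAGE, so 276 of the highest CAGE sites were not among the 434. Of the 100 highest sites of CAGE 17 were among them, against 91 and 83 of the 100 highest in the 2 WTSS-seq libraries of the same pool. The 434 sites were chosen on WTSS-seq, which favours the lists of that method, so nothing is read from this contrast. CAGE was run on females only, and it reached 50 CPM at 36 of 131 male sites, 177 of 245 female sites and 45 of 58 shared sites. The rank correlation of female means with CAGE over the 303 sites was 0.24. Within the pool, that of the mean WTSS-seq level with CAGE was 0.40, beside 0.49 between the pool's WTSS-seq libraries. The 303 sites were cut off on the female mean, so the 0.24 is not compared with the other values.

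Where the pool itself had signal, CAGE was usually below WTSS-seq. Of the 434 sites, 383 averaged 50 CPM or more in the pool's WTSS-seq, and over these CAGE was a median 0.175 times the pool level. It was above the pool level at 42 sites and under 0.1 times it at 130. The 2545 other sites at that pool level had a median of 0.267, and 563 of them were above 1. Both groups were taken by their WTSS-seq level, which is the divisor of the ratio. This choice favours ratios under 1, so nothing is read from them. With 1 CAGE library there is no replicate and no test, and the intervals given here are 95% exact Poisson intervals that cover counting error only.

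Among the highest sites in WTSS-seq, CAGE levels differed widely. The highest site in females, on chromosome 2 at 39401987, had 336 CPM in CAGE (interval 314 to 359.8) and 33129 and 21002 CPM in the pool's WTSS-seq libraries. The highest site in males, on chromosome 5 at 61406537, had 2591 CPM in CAGE (interval 2529 to 2655) and 10456 and 14335 CPM in the pool's WTSS-seq libraries. The female site on chromosome 7 at 101426755 had 17 CPM in CAGE (interval 12.3 to 22.8) and 3744 and 2506 CPM in the pool's WTSS-seq libraries. Their ranks in CAGE were 491, 10 and 8117, and all 3 were lower in CAGE than in either pool library.

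The opposite order was clearest at 2 sites on chromosome 9. The male site at 36990600, minus strand, 1545 bases wide and the widest of all, had 7435 CPM in CAGE (interval 7329 to 7542) and 1219 and 2063 CPM in the pool's WTSS-seq libraries, and its CAGE level was the highest of all sites in the table. Another site on that strand, downstream at 36980395, had 7062 CPM in CAGE (interval 6959 to 7166) and 165 and 149 CPM in the pool's WTSS-seq libraries, or 45.1 times the pool's mean. In WTSS-seq these sites had 9133 ± 3593 CPM in males and 391 ± 231 CPM in females and 1011 ± 256 CPM in males and 55.2 ± 38.3 CPM in females. Both shared their strongest downstream poly(A) site, at 36978837, which had 23984 to 86696 CPM in males (mean 43963 ± 22151) and 801 to 2745 CPM in females (mean 1937 ± 857) (log2 difference 4.50, SE 0.43, adjusted p = 1.25e-06, edgeR). The male sites on chromosome 6 at 100839110 and chromosome 7 at 1685945 followed, with CAGE at 19.3 and 15.4 times the pool. Among female sites the highest ratios were those on chromosome 1 at 39548984 (5.38) and chromosome 9 at 106354 (4.84).

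CAGE gave no count at 27 sites, which allows a level of up to 1.18 CPM (3 counts). The male site of rank 9, on chromosome 2 at 62334654, was one of them, with 7482 ± 6775 CPM in males and 115 ± 125 CPM in females. Its pool levels were 9.18 and 1.11 CPM, so this pool of females had little of it by either method. Others were well above that in the pool. On chromosome 10, plus strand, the site at 6206153 had 412 and 196 CPM, and that on chromosome 3, minus strand, at 6853192 had 642 and 404 CPM, both with 0 CAGE counts. The site on chromosome 2, minus strand, at 35669970 had 363 CPM in the first pool library and 23.9 CPM in the second. A further site, on chromosome 9, minus strand, at 15708131, had 72.9 and 1540 CPM, and in females it rested largely on female 3 at 3534 CPM. A site on a scaffold (17297, plus strand) had 21.1 and 438 CPM.

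**Figure D5:**
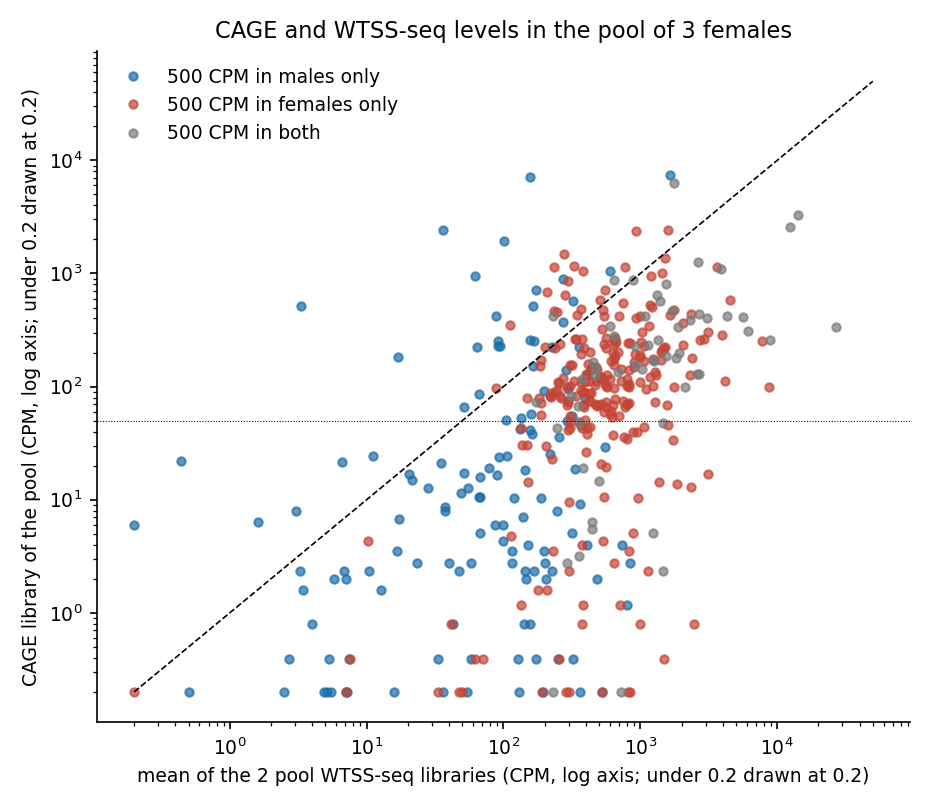
CAGE level (vertical) against the mean WTSS-seq level (horizontal) of the pool of 3 females, in CPM on log axes, for the 434 sites by class. The dashed line marks equal levels and the dotted line 50 CPM in CAGE. Of the 383 sites at 50 CPM or more in the pool, 42 lie above the dashed line, and the 2 highest points are male sites on chromosome 9 at 7435 CPM and 7062 CPM.

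CAGE counts were scarcer at uneven and at narrow sites. Of the 30 sites that rested mainly on 1 animal, 5 reached 50 CPM in CAGE and 8 had 0 counts, while of the other 404 sites 253 reached it and 19 had 0. CAGE was run on females only, while 9 sites rested mainly on 1 male. The sample titles do not say which females were in the pool. Unevenness thus cannot be told apart here from sex or from absence of that animal from the pool. The 434 sites were a median of 409.5 bases wide, between 7 and 1545, and all sites of 1 CPM or more a median of 161 bases. Of the 10 sites of 30 bases or fewer none reached 50 CPM in CAGE, 6 had 0 counts, and 5 rested mainly on 1 animal.

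In loci with several of the sites, CAGE was usually highest at the one farthest upstream, a pattern noticed in these values and not tested. Of 13 such loci the first site had the highest CAGE level in 10, and the highest WTSS-seq level in 7. The WTSS-seq levels here are means of males or of females, while CAGE was run on females only. Where male levels are given, method and sex cannot be told apart. In the chromosome 5 locus CAGE gave 2591 CPM at 61406537 and at most 18.5 CPM at the 2 sites downstream, which had 5979 and 562 CPM in males by WTSS-seq. On chromosome 4, minus strand, the upstream site at 35850671 had 1155 CPM in CAGE and the downstream one at 35848702 had 34.7 CPM. In females by WTSS-seq the order was the reverse, with 784 and 1853 CPM. On chromosome 7, minus strand, CAGE gave 1054 CPM at 56362002 and 2.76 CPM at 56358637 downstream, while WTSS-seq gave both about the same in males (1443 and 1493 CPM). The exceptions were 3 loci on scaffolds with at most 2.37 CPM in CAGE at any site. CAGE was as low in 1 of the 10, on chromosome 2, minus strand, with 1.97 CPM at 62335589 and 0 at the other site.

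Along the genome the sites were spread over all 10 chromosomes, with 232 on the plus and 202 on the minus strand. As a share of the sites of 1 CPM or more, they ran from 0.846% on chromosome 4 to 1.65% on chromosome 7, and 51 lay on unplaced scaffolds. On chromosome 1, 6 of 51 were male sites and 35 female ones, and on chromosome 2, 22 of 67 were male and 34 female (1.14% and 1.59% of the sites there). On the same strand, 40 sites had another of the 434 within 5000 bases. On opposite strands, 2 pairs lay within 1000 bases. On chromosome 9 the plus-strand site at 32718978 had 2693 ± 722 CPM in males and 5035 ± 1458 CPM in females, while the minus-strand site at 32718597, 381 bases away, had 3757 ± 682 CPM in males and 1618 ± 558 CPM in females (SD, n = 6 each). In CPM the members of this pair thus differed between the sexes in opposite directions. CPM lowers most male values, with a median log2 ratio of −0.85 over sites of 1 CPM or more, against −0.23 with TMM scaling. No TMM-scaled levels are given for the pair, so the direction at the plus-strand site can rest on the scaling. On chromosome 5 the sites at 21020125 (plus) and 21019758 (minus) were both female sites, at 501 and 688 CPM in females.

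The limit of 500 CPM fell within a continuous range of levels. The last sites inside it were those on chromosome 5 at 21020125, chromosome 2 at 57607832 and chromosome 7 at 11933237, with 500.6, 500.8 and 501.4 CPM in females. Just outside were sites on chromosome 7 at 78092843 (499.5 CPM in males), chromosome 4 at 75042954 (499.3 CPM in females) and chromosome 10 at 3029248 (498.9 CPM in males).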

How the data were processed

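WTSS-seq, CAGE and WTTS-seq libraries of adult whole bodies were used, 27 of the 30 in the labels. HATT-seq and Iso-seq were not analysed here. Per the file headers, the authors deposited 2 tables of raw counts for each site in each library: 69857 start sites in 15 libraries and 98277 poly(A) sites in 12. The smallest total count of a listed site was 25, so weaker sites are not analysed here. Per the labels' protocols, WTSS-seq RNA was depleted of ribosomal RNA, WTTS-seq RNA was fragmented and enriched for poly(A), and both were amplified by PCR. For aligner, clustering of reads into sites and genome build, the entry is: not given in the sources used here. The number of columns of no sample was 0. Groups came from the labels. Male WTSS-seq columns headed Male3, Male4 and Male4 carry no settled animal number.

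The mitochondrial sequence and 1 scaffold (71 rows) were left out, and CPM is the count over the remaining total. Positions were shifted to count from 1, and sequence names gave the chromosome numbers. The sites and lists were chosen with earlier results of these data known. Named sites are the 10 highest in each sex, the 5 highest and 5 lowest ratios of males over females, the 3 with the largest share in 1 animal of each sex, the 3 with the smallest coefficient of variation, the 5 highest and 5 lowest ratios of CAGE over the pool (pool mean of 50 CPM or more), and 3 on each side of 500 CPM. Others were named after their values were seen.

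Poly(A) counts of the 6 males and 6 females were compared over all loci or poly(A) sites in edgeR 4.0.16 under R 4.3.3 (quasi-likelihood F test), with filterByExpr, TMM scaling and Benjamini-Hochberg adjustment at 0.05, without a replicate block. The TMM factors lay between 0.521 and 0.765 in males and between 1.53 and 1.70 in females. The fit was tested on simulated data in which few loci changed, as many up as down. Such data cannot check the scaling between the sexes. The standard error is the log2 difference divided by the square root of F. Replicates are separate animals, per the series design. Intervals are 95% and, like the floor of 3 counts, cover counting error only, since PCR reads are not independent molecules. Alternatives were DESeq2 1.42.0, RLE factors, library totals, no filter, other locus gaps (5000 and 50000 bases), a replicate block and each library left out. The remaining steps ran in Python 3.11.15 with scipy 1.17.1, pandas 2.3.3 and numpy 2.4.6.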

Additional observations from a re-analysis of the deposited data

Results flagged for a closer look

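For the 47 named sites, the highest or lowest of 6 animals was set against the others in 96 groups of WTSS-seq values. In 32 groups its gap to the nearest animal was more than 0.625 of the whole range. For normally distributed values that limit flags about 1 in 20 groups by chance. Many values here are uneven and some rest on a few counts, so that rate does not apply to them. The first Male4 column was the highest male in 10 of the 32 and female 3 the highest female in 5. The sites were chosen on these values, some of them for their unevenness. The scaffold left out of the table was a further signal, at 67.2% of the counts of female 3.

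Among the highest sites, the highest site in males, on chromosome 5 at 61406537, was low in the second Male4 column (113891 CPM) and high in female 2 (14402 CPM). Female 3 was low at the chromosome 2 site at 39401987 (11453 CPM) and the chromosome 3 site at 81925372 (1998 CPM). It was high at the chromosome 2 site at 62334654 (349.6 CPM).

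The first Male4 column and female 3 stood out together at 3 sites. On the scaffold at 5030 they had 1183 and 40791 CPM, and on chromosome 7 at 8096997 they had 302 and 35701 CPM. On chromosome 3 at 53656009 they had 20.7 and 8164 CPM. The same male column was high at the chromosome 6 site at 113328859, with 6598 CPM, where female 4 had 179 CPM. It was also high at the chromosome 3 site at 79012, with 1925 CPM, where female 4 had 11.0 CPM.

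Several flags rest on a few counts in males at female sites. The first Male4 column had 26.0 CPM at the chromosome 7 site at 101426755, where female 1 was high at 9281 CPM. It had 0.766 CPM on chromosome 1 at 173657267, 6.13 CPM on chromosome 2 at 144103174, and 3.06 CPM both on chromosome 9 at 77005397 and on chromosome 4 at 25159195. The second Male4 column had 0.241 CPM on chromosome 4 at 35850671.

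At male sites the second Male4 column was high on chromosome 7 at 9086083 (3078 CPM), where female 1 had 5.84 CPM. The column headed Male3 was high on the scaffold at 33341 (2473 CPM), where female 1 had 11.7 CPM. The remaining flags were male 1 at 80.7 CPM and female 3 at 289.9 CPM on chromosome 10 at 6206153, and female 3 at 3534 CPM on chromosome 9 at 15708131. On chromosome 5 at 21020125 they were male 6 at 274.5 CPM and female 3 at 182.5 CPM, and on chromosome 2 at 57607832 female 5 at 961 CPM.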

How the results depend on the processing

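Leaving out 1 WTSS-seq library at a time gave 428 to 443 sites, shares of 62.0% to 62.8% in males and 44.9% to 46.1% in females, and 329 to 371 sites with no overlap between the sexes. The number of sites fell from 434 to 396 with the median over the animals in place of the mean. It fell to 364 with CPM over all rows. Over all rows, the excluded ones included, the sites took 54.5% of male and 38.7% of female counts, because the total then holds the excluded rows. At a CAGE level of 500 CPM, 41 sites were left. The number of sites with a locus higher in males was 66, and became 112 with no filter and 118 with the strongest poly(A) site, where more sites are tested. The number with a locus higher in females was 46, and became 71 with library totals alone, 76 with no filter, 24 with gaps of at most 5000 bases and 124 with the strongest poly(A) site. Leaving out 1 WTTS-seq library gave 66 to 75 and 43 to 51. Among the named sites the direction turned in 3 cases: the scaffold site at 182 (−0.99) and the chromosome 7 site at 8096997 (−0.69) with library totals alone, and the chromosome 5 site at 54659864 (0.35) with the strongest poly(A) site. None of these 3 values passed the threshold, and the cause was not tested. Outside the named sites, the chromosome 2 site at 155162051 had a locus called higher in males (3.90, adjusted p = 0.00481, edgeR) and a strongest poly(A) site called higher in females (−4.16, adjusted p = 4.75e-04, edgeR). The chromosome 3 site at 94955325 gained a call in females with library totals alone (−1.90, adjusted p = 0.0377) and with the strongest poly(A) site (−1.03, adjusted p = 0.00598, edgeR). The locus of the chromosome 10 site at 6206153 (adjusted p = 0.0482, edgeR) lost its call with RLE factors, with the replicate block and without several single libraries, at adjusted p of 0.05005 to 0.0855. That of the chromosome 7 site at 11933237 lost its call without female 1 (adjusted p = 0.0589) and without male 5 (0.0546).

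With the replicate number as a block, 65 sites had a locus higher in males and 42 one higher in females. Over all loci, same-numbered males and females did not deviate together. The correlation of their deviations lay between −0.060 and 0.066, and 1 of 6 correlated best with its own number. A factor shared by same-numbered animals at some loci only was not tested.

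A level of 500 CPM in an animal rests on many counts there, but a mean of 500 CPM can rest mainly on 1 animal. Counting error was not compared with the spread between animals. The limits are the 1 CAGE library, the 249 sites whose locus had too few poly(A) counts for a test, and 3 male columns without a settled number.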

Other observations

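The 46 sites at least 100 times as high in females had few counts in males. Each male had counts at 31 to 45 of the 46 sites and none at the rest. Their summed level was 123 to 246 CPM in 5 males and 655 CPM in the first Male4 column, against 52980 to 112483 CPM in females. That column was the highest male at 32 of the 46 sites. It is also the shallowest library. Its 855 counts over these sites lay within the 433 to 907 counts of the other males, but their libraries were deeper, so counts alone do not compare the levels. The sites were chosen on these values, and the cause was not tested.

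The ratio of CAGE to WTSS-seq in the female pool depended on the pool level taken. Among sites at 500 CPM or more in the pool's WTSS-seq, CAGE was a median 0.139 times the pool level at 181 of the 434 sites and 0.0331 times at 43 other sites. These other sites averaged under 500 CPM in both sexes of single animals, so the choice favours sites with an unusually high pool level. At 50 CPM or more in the pool, where 383 of the 434 and 2545 other sites lie, the order was the reverse (0.175 and 0.267). The groups can differ in pool level, and nothing is read from these ratios.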
